A study of Homo sapiens with 18 samples.

Results

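The BCL2 family and the death receptors decide between survival and death of a cell, and the transcripts of 10 of these genes were followed here after knockdown of OFD1 in pancreatic cancer cells. The genes were BBC3, PMAIP1, BCL2L11, BID, BCL2, BCL2L1, MCL1, BAX, BAK1 and TNFRSF10B. They were taken by symbol from a table of 26668 gene symbols, all 10 were found, and knockdown was compared with control within each of 3 lines. PANC1, MIA PaCa-2 and PATU8988T were derived from human pancreatic cancers and are in common use, and OFD1 is a protein of the centrosome and the cilium base. RNA was sequenced from 3 control and 3 knockdown samples of each line, 18 libraries in all, and values are in FPKM, read counts scaled to gene length and library size.

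The knockdown libraries are labelled shOFD1 with doxycycline, the drug that switches the Tet-on hairpin on, and 72 h. The control libraries are labelled shControl, wild type and untreated, whereas the methods of the study describe Tet-on shOFD1 cells given DMSO, so whether the controls carried the OFD1 hairpin was not settled here. By the labels, the control samples had no doxycycline, all knockdown samples had it, and the series text places the controls at day 0 and the knockdown at day 3. The effects of OFD1 loss, of doxycycline, of time in culture and of separately made cells therefore cannot be told apart. No label says that the 3 samples of a group came from separate cultures, so p-values measure the spread between these samples, which may be technical. Source labels of replicates 2 and 3 of PATU8988T carry a different line number, and the titles were followed.

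Each library held between 32486479 and 39797537 counted reads. OFD1, the targeted gene, fell in all 3 lines, by 53.1% (PANC1), 36.1% (MIA PaCa-2) and 55.8% (PATU8988T) (log2 fold changes of -1.07 ± 0.09, -0.61 ± 0.16 and -1.10 ± 0.10, limma SE, n = 3 against 3). In MIA PaCa-2 the call of OFD1 depended on single libraries, and its adjusted p went from 0.0232 to between 0.0608 and 0.0899 when any library other than control replicate 2 was left out. The epithelial keratins KRT8 and KRT18 were above 316 FPKM in every library, KRT19 was near 0 in PATU8988T (at most 0.0194 FPKM), and EPCAM and CDH1 were near 0 in MIA PaCa-2 (at most 0.0991 and 0.0321 FPKM). CDH1 and KRT7 were also low in PATU8988T (at most 0.378 and 0.478 FPKM), and KRT7 was at most 1.21 FPKM in MIA PaCa-2. Of the mesenchymal genes, VIM was at 580 to 4968 FPKM and ZEB1 at 3.00 to 7.47 FPKM over all libraries. CDH2 was at 0 in MIA PaCa-2, at 4.40 to 8.96 FPKM in PANC1 and at 6.98 to 8.08 FPKM in PATU8988T. Among markers of other cells, the leukocyte gene PTPRC was at 2.32 to 6.22 FPKM in MIA PaCa-2 and the collagen gene COL1A1 at 22.0 to 26.6 FPKM in PANC1, and the other 9 leukocyte, fibroblast and endothelial markers stayed at or below 1.49 FPKM. Their part in the results was not tested.

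MIA PaCa-2 control replicate 2 stood apart. Its median absolute deviation from the mean of the other 2 libraries of its group was 0.393 on the log2 scale, against 0.0510 to 0.0930 in the 15 libraries outside the MIA PaCa-2 controls, and the deviation followed the GC content of the transcript (Spearman's rho of 0.881 across 10233 genes of this library, which are not independent replicates). BBC3 has a transcript of 69.7% GC, higher than in 99.7% of genes, and stood in this library at 2.49 times the geometric mean of the other controls on the scale of FPKM plus 0.1, used for each of these ratios. BAK1 stood at 1.59 times, BAX at 1.47 times and BCL2L1 at 1.23 times that mean, while MCL1 and PMAIP1, the latter at 37.2% GC, were at 0.817 and 0.675 of it. Every tested change of a member within MIA PaCa-2 is therefore given with and without this library.

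Cells commit to the mitochondrial pathway of apoptosis when BAX and BAK, the effectors, open the outer mitochondrial membrane and release cytochrome c. The anti-apoptotic proteins BCL2, BCL-XL (from BCL2L1) and MCL1 hold the effectors in check, and the BH3-only proteins PUMA (BBC3), NOXA (PMAIP1), BIM (BCL2L11) and BID bind these guards or the effectors themselves. The receptor DR5 (TNFRSF10B) binds the ligand TRAIL and activates caspase-8, which can cut BID and so link the death receptors to the mitochondrion.

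The members changed differently in the 3 lines. In PANC1, BCL2L11, BAX and BAK1 rose while PMAIP1, BCL2L1 and TNFRSF10B fell. In MIA PaCa-2, BBC3, BCL2L11, MCL1 and TNFRSF10B rose while BCL2L1 and BID fell. In PATU8988T the changes were smaller, with rises of BAX, BAK1 and BID and a fall of MCL1. Here and below, rose and fell mean a Benjamini-Hochberg adjusted p under 0.05 with limma over all genes of the line with a mean of at least 1 FPKM, and 2-fold means in addition a fold change above 2 or below 0.5.

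These counts are set beside the share of all tested genes that passed the same threshold. In PANC1, 3 of 9 tested members rose and 3 fell, beside 40.1% and 32.2% of 10902 genes, and 0 passed the 2-fold threshold, beside 6.6% of genes. Rescaling the PANC1 libraries by their median ratio moved the genes passing from 4375 higher and 3507 lower to 3742 higher and 3938 lower. In MIA PaCa-2, 4 of 9 rose and 2 fell, beside 18.7% and 21.7% of 10758 genes, and BBC3 alone passed the 2-fold threshold, which 7.75% of genes did. Leaving out 1 MIA PaCa-2 library gave 4 to 9 members past the test, 1101 to 3811 genes higher and 1319 to 4287 lower, with the highest counts without control replicate 2 and 4 members without any 1 knockdown library. In PATU8988T, 3 of 8 rose and 1 fell, beside 20.9% and 18.5% of 10698 genes, and 0 were past 2-fold, beside 1% of genes. The control and knockdown libraries did not overlap for 5, 7 and 6 of the tested members in PANC1, MIA PaCa-2 and PATU8988T, and for 75%, 59.3% and 51.9% of all genes. BCL2 was under the filter of 1 FPKM in every line and BCL2L11 in PATU8988T, and their values are given below without a test. The median log2 fold changes of the tested members were -0.02, -0.04 and 0.15, beside 0.06, -0.03 and 0.03 over all genes of the 3 lines.

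**Figure D1:**
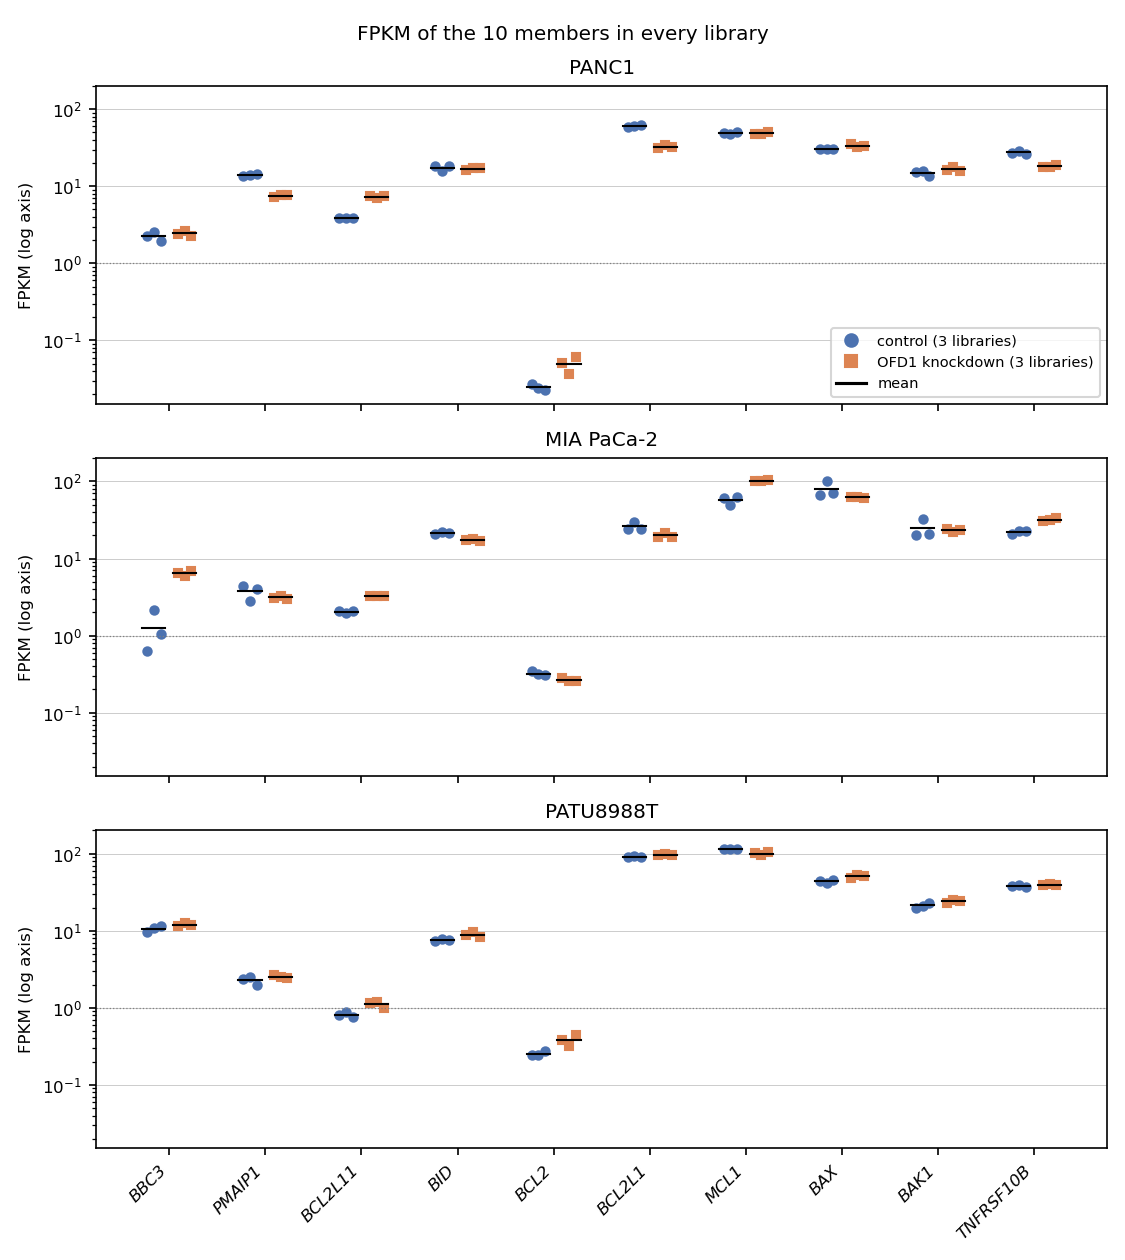
FPKM of the 10 members on a log axis in each library of PANC1, MIA PaCa-2 and PATU8988T, with control libraries as circles, OFD1 knockdown libraries as squares, the mean of each group as a black line and the filter of 1 FPKM as a dotted line. BBC3 is higher in the 3 MIA PaCa-2 knockdown libraries (5.98 to 6.82 FPKM) than in the controls (0.624 to 2.16), while BCL2 lies below 1 FPKM in all libraries.

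The promoters of the 3 BH3-only members that moved most are shown because their motifs differ in part, and were chosen with these changes known. Promoter windows of 300 bases, 250 before the start and 50 from the start on, came from RefSeq on GRCh38.p14. They were found for 8 of the 10 members. None was found for MCL1, and TNFRSF10B was left out of the search, so whether it has a window was not tested. The 6 motifs below were searched on both strands, and the capitals mark their matches, none of which overlapped another in these windows. The motifs were GTAAACA (FOXO factors), TGACGT (the core of a cAMP response element), TGATGNAA (C/EBP-ATF composite), TTTNNCGC (E2F), GGGCGG (SP1) and CACGTG (an E-box).
BCL2L11, chr2:111120664-111120963, plus strand: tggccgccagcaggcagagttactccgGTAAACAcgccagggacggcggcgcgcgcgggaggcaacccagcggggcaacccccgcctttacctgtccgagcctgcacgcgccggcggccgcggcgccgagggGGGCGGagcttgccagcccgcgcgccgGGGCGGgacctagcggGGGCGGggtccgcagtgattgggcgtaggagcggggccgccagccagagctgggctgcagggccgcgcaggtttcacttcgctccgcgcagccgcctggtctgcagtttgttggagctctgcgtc
PMAIP1, chr18:59899746-59900045, plus strand: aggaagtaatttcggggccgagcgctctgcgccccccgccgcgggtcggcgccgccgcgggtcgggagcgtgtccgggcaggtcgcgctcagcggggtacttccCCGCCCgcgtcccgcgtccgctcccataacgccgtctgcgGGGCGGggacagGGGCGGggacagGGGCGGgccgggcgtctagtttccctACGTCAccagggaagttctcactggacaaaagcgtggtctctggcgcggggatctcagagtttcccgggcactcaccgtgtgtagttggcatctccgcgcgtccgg
BBC3, chr19:47232618-47232917, minus strand: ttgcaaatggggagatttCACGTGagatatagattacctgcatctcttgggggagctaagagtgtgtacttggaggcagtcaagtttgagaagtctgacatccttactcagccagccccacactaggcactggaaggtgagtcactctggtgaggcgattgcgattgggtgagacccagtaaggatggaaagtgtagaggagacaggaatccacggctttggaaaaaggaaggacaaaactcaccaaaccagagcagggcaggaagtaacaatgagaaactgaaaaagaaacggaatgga
The BCL2L11 window holds GTAAACA at position 28, counted from the 5′ end of the window, and 3 GGGCGG. The PMAIP1 window holds TGACGT, read on the other strand as ACGTCA, at position 195 and 4 GGGCGG matches, of which 1 lies on the other strand as CCGCCC. In the BBC3 window CACGTG at position 19 was the only match. Of 35116 promoter windows in the same table, 3.42% hold GTAAACA, 7.98% TGACGT, 44.95% GGGCGG, 7.26% CACGTG, 3.62% TGATGNAA and 6.89% TTTNNCGC. These matches describe the letters only.

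BBC3 encodes PUMA, a BH3-only protein that binds all the anti-apoptotic members, and lies on chromosome 19 from 47220822 to 47232766 on the minus strand (GRCh38, GENCODE v29, as are all gene positions here). In MIA PaCa-2 it stood at 0.624, 2.16 and 1.03 FPKM in the controls and at 6.49, 5.98 and 6.82 FPKM in the knockdown libraries. Every knockdown library was above every control, and the controls spread widely. The means differed 5.06-fold, and BBC3 rose by 2.41 ± 0.38 on the log2 scale (SE, 95% interval from 1.497 to 3.32, adjusted p = 0.00371 with limma), on 58 to 621 reads per library. Without control replicate 2, which had the highest control value, the log2 fold change was 2.85 (adjusted p = 1.27e-06), and with the GC trend of each library removed it was 2.61 (adjusted p = 2.66e-05). In PANC1, BBC3 was at 2.28, 2.57 and 1.97 FPKM in the controls and at 2.40, 2.67 and 2.29 FPKM in the knockdown libraries. These groups overlapped, and the log2 fold change was 0.11 with a 95% interval from -0.15 to 0.37 (adjusted p = 0.409). In PATU8988T the controls were at 9.74, 10.8 and 11.4 FPKM and the knockdown libraries at 11.5, 12.7 and 12.0 FPKM. The groups did not overlap, although the closest libraries were near each other, and BBC3 did not pass the test (log2 fold change of 0.18 ± 0.07, adjusted p = 0.0543). With the GC trend removed, BBC3 in PATU8988T was at 0.40 (adjusted p = 0.000108), and the deviations of knockdown replicates 1 and 2 of this line followed GC content in opposite directions (rho of -0.666 and 0.660).

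BCL2L11 encodes BIM, which binds the anti-apoptotic members and can activate BAX and BAK directly, and lies on chromosome 2 from 111119378 to 111168447 on the plus strand. It was at 3.87, 3.90 and 3.92 FPKM in the PANC1 controls and at 7.44, 7.03 and 7.46 FPKM after knockdown. In MIA PaCa-2 it was at 2.07, 1.94 and 2.07 FPKM against 3.28, 3.28 and 3.27 FPKM. In both lines the libraries of a group lay close together and the groups were well apart. BCL2L11 rose by 0.89 ± 0.06 in PANC1 (an increase of 87.7% in the mean, adjusted p = 4.89e-07 with limma) and by 0.67 ± 0.10 in MIA PaCa-2 (61.5%, adjusted p = 0.00280), and by 0.64 in MIA PaCa-2 without control replicate 2. In PATU8988T BCL2L11 was at 0.819, 0.873 and 0.750 FPKM in the controls and at 1.16, 1.19 and 0.997 FPKM after knockdown, from 214 to 330 reads. The groups did not overlap, but the mean was under 1 FPKM and the gene was not tested. With no filter the log2 fold change was 0.41 (adjusted p = 0.0777). Exons of BCL2L11 share up to 727 bases with MIR4435-2HG on the opposite strand, which was at 6.06 to 8.49 FPKM in MIA PaCa-2 and was listed at 0 in PANC1. Whether the authors counted reads by strand is not given in the sources used here.

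PMAIP1 encodes NOXA, a BH3-only protein that binds MCL1, and lies on chromosome 18 from 59899948 to 59904306 on the plus strand. PANC1 libraries fell from 13.6, 13.9 and 14.6 FPKM to 7.32, 7.73 and 7.72 FPKM. All knockdown libraries were below all controls, and the mean fell by 45.9% (log2 fold change of -0.88 ± 0.05, adjusted p = 1.53e-07 with limma). In MIA PaCa-2 the controls were at 4.35, 2.81 and 4.08 FPKM and the knockdown libraries at 3.07, 3.30 and 3.02 FPKM. Control replicate 2 was the lowest of the 6 libraries, so the groups overlapped, and the log2 fold change of -0.23 ± 0.18 did not pass the test (adjusted p = 0.333). Without that library it was -0.42 (adjusted p = 0.000761). PATU8988T had 2.36, 2.54 and 2.002 FPKM in the controls and 2.66, 2.49 and 2.42 FPKM after knockdown, with overlapping groups and a 95% interval from -0.09 to 0.36.

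BID, the BH3-only protein that caspase-8 activates by cleavage, lies on chromosome 22 from 17734138 to 17774770 on the minus strand. It showed small changes that differed in sign between lines. In MIA PaCa-2, BID was at 21.1, 22.0 and 21.4 FPKM in the controls and at 17.3, 18.1 and 16.7 FPKM after knockdown, a fall of 19.0% with no overlap (log2 fold change of -0.30 ± 0.08, adjusted p = 0.0197 with limma). Without control replicate 2 the value was -0.29 (adjusted p = 0.000313), but leaving out any other MIA PaCa-2 library ended the call (adjusted p from 0.0520 to 0.104). In PATU8988T, BID was at 7.31, 7.77 and 7.61 FPKM in the controls and at 8.89, 9.56 and 8.31 FPKM after knockdown, again with no overlap. It rose by 17.9% in the mean (log2 fold change of 0.23 ± 0.06, adjusted p = 0.0155), a call lost without control replicate 1 (adjusted p = 0.0610). PANC1 gave 18.2, 16.0 and 18.2 FPKM against 16.5, 17.3 and 17.1 FPKM, with a 95% interval from -0.16 to 0.09.

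Of the anti-apoptotic members, BCL2L1, which encodes BCL-XL, fell in PANC1 and MIA PaCa-2. The gene lies on chromosome 20 from 31664452 to 31723989 on the minus strand. In PANC1 it went from 59.3, 60.0 and 61.6 FPKM in the controls to 31.0, 34.2 and 32.0 FPKM after knockdown. All knockdown libraries were far below all controls, and the mean fell by 46.3% (log2 fold change of -0.90 ± 0.04, adjusted p = 2.25e-08 with limma). In MIA PaCa-2 it was at 24.3, 30.1 and 24.4 FPKM in the controls and at 19.3, 21.4 and 19.1 FPKM after knockdown, with no overlap. Here it fell by 24.1% in the mean (log2 fold change of -0.39 ± 0.11, adjusted p = 0.0303), and by 0.29 on the log2 scale without control replicate 2, its highest library (adjusted p = 0.000890). Leaving out any 1 of the MIA PaCa-2 knockdown libraries ended the call (adjusted p from 0.0647 to 0.115). In PATU8988T the controls at 91.0, 92.0 and 91.7 FPKM lay just below the knockdown libraries at 95.1, 100.4 and 95.2 FPKM, and the log2 fold change of 0.08 ± 0.04 did not pass the test (adjusted p = 0.0980), but did with the GC trend removed (0.13, adjusted p = 0.00311). Exons of BCL2L1 share up to 1424 bases with the antisense gene ABALON, which was listed at 0 in PANC1, was at most 0.161 FPKM in MIA PaCa-2, and reached 4.88 FPKM in the controls and 7.88 FPKM in the knockdown libraries of PATU8988T. For the 0 of ABALON in PANC1, too, no expression and a gene not counted cannot be told apart.

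MCL1 encodes a short-lived guard of BAK and lies on chromosome 1 from 150574551 to 150579738 on the minus strand. In MIA PaCa-2 it was at 60.8, 50.2 and 62.1 FPKM in the controls and at 102, 102 and 103 FPKM in the knockdown libraries. The groups were well apart, and MCL1 rose by 77.8% in the mean (log2 fold change of 0.84 ± 0.09, adjusted p = 0.00107 with limma), and by 0.74 on the log2 scale without control replicate 2, its lowest library. In PATU8988T it went the other way, from 116, 115 and 114 FPKM to 101, 95.8 and 104 FPKM with no overlap. This was a fall of 13.2% (log2 fold change of -0.20 ± 0.04, adjusted p = 0.00248). PANC1 gave 49.1, 48.2 and 50.1 FPKM against 47.2, 47.5 and 51.0 FPKM, which overlapped, with a 95% interval of the log2 fold change from -0.10 to 0.06.

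BCL2, on chromosome 18 from 63123346 to 63320128 on the minus strand, was at a low level in all 3 lines and was not tested. PANC1 gave 0.0274, 0.0240 and 0.0229 FPKM in the controls and 0.0516, 0.0362 and 0.0603 FPKM after knockdown, from 8 to 21 reads per library. MIA PaCa-2 had 0.345, 0.313 and 0.306 FPKM against 0.278, 0.254 and 0.257 FPKM, and PATU8988T had 0.246, 0.241 and 0.279 FPKM against 0.384, 0.317 and 0.443 FPKM. The groups did not overlap in any of the 3 lines, with knockdown higher in PANC1 and PATU8988T and lower in MIA PaCa-2. With no filter on low values BCL2 did not pass the test in any line (adjusted p of 0.0832, 0.347 and 0.125).

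Summed in FPKM, the 3 anti-apoptotic members shifted in makeup. In PANC1 the share of BCL2L1 was 55.1% ± 0.4 in the controls and 39.98% ± 1.69 after knockdown (SD, n = 3), while the sum went from 109 ± 2 to 81.0 ± 2.5 FPKM. In MIA PaCa-2 the share went from 31.3% ± 5.2 to 16.2% ± 0.9, and the sum from 84.3 ± 3.3 to 122.8 ± 1.1 FPKM. PATU8988T moved the opposite way, with a share of 44.2% ± 0.3 in the controls and 49.1% ± 1.8 after knockdown and a sum of 207 ± 1 and 197 ± 2 FPKM. The ratio of MCL1 to BCL2L1 thus lay at 0.805 to 0.829 in PANC1 controls and 1.39 to 1.59 after knockdown, at 1.67 to 2.54 and 4.79 to 5.38 in MIA PaCa-2, and at 1.25 to 1.27 and 0.954 to 1.09 in PATU8988T. The ranges of control and knockdown libraries did not overlap in any line. For such a ratio, the smallest p of an exact permutation test (two-sided, 3 libraries against 3) is 0.1, and none is reported.

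**Figure D2:**
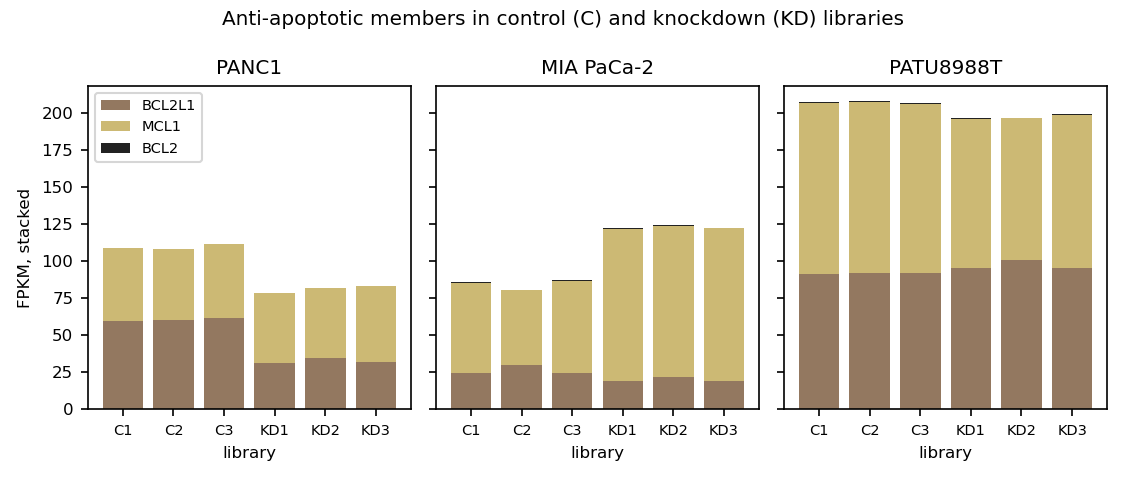
Stacked FPKM of BCL2L1, MCL1 and BCL2 in the 3 control (C) and 3 knockdown (KD) libraries of each line. The BCL2L1 segment is shorter after knockdown in PANC1 (31.0 to 34.2 FPKM against 59.3 to 61.6), and the MCL1 segment is longer in MIA PaCa-2 (102 to 103 FPKM against 50.2 to 62.1), while BCL2 is too low to be seen.

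The effectors BAX and BAK1 changed little. BAX lies on chromosome 19 from 48954815 to 48961798 on the plus strand. It rose by 10.6% in PANC1, from 30.6, 30.5 and 30.3 FPKM to 35.2, 32.2 and 33.8 FPKM, and by 15.8% in PATU8988T, from 44.5, 42.2 and 45.5 FPKM to 48.8, 53.2 and 51.0 FPKM. In neither line did the groups overlap (log2 fold changes of 0.14 ± 0.04 and 0.21 ± 0.05, adjusted p = 0.00669 and 0.00558 with limma). The PANC1 call was lost when libraries were rescaled by median ratio (0.09, adjusted p = 0.0610), when reads were fitted with limma-voom (adjusted p = 0.0724) and when all 18 libraries shared 1 estimate of the spread (adjusted p = 0.259), and this shared estimate also ended the PATU8988T call (adjusted p = 0.180). In MIA PaCa-2 BAX was at 66.4, 101 and 71.0 FPKM in the controls and at 62.2, 62.4 and 61.4 FPKM after knockdown. The high value is control replicate 2, and the log2 fold change of -0.33 ± 0.16 did not pass the test (adjusted p = 0.133), while without that library it was -0.15 (adjusted p = 0.00303).

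BAK1, on chromosome 6 from 33572547 to 33580293 on the minus strand, was at 15.2, 15.9 and 13.5 FPKM in PANC1 controls and at 16.4, 17.996 and 15.8 FPKM after knockdown. In PATU8988T it was at 19.7, 21.2 and 23.0 FPKM and at 22.8, 25.1 and 24.1 FPKM. The groups overlapped narrowly in both lines, and BAK1 rose by 12.5% and 12.7% in the mean (log2 fold change of 0.17 in each, adjusted p = 0.0437 and 0.0474 with limma). Both calls were lost with no filter on low values (adjusted p = 0.0886 and 0.118) and when libraries were rescaled (0.159 and 0.0557). They were also lost without any 1 of 4 libraries in each line (adjusted p of 0.0623 to 0.164 for PANC1 and of 0.107 to 0.170 for PATU8988T). In MIA PaCa-2 BAK1 was at 20.3, 32.8 and 20.8 FPKM in the controls and at 24.0, 22.4 and 23.6 FPKM after knockdown. The knockdown libraries lay between control replicate 2 and the other controls. The log2 fold change was -0.04 ± 0.19 with all libraries (adjusted p = 0.876) and 0.18 without control replicate 2 (adjusted p = 0.00298), so the direction of BAK1 in this line rests on that library.

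The death receptor gene TNFRSF10B moved in opposite directions in PANC1 and MIA PaCa-2. In PANC1 it fell from 27.2, 28.8 and 26.5 FPKM to 17.6, 17.8 and 18.9 FPKM. In MIA PaCa-2 it rose from 21.0, 22.8 and 22.5 FPKM to 30.2, 31.4 and 33.4 FPKM. The groups were well apart in both lines, with a fall of 34.2% in PANC1 (log2 fold change of -0.60 ± 0.04, adjusted p = 1.12e-06 with limma) and an increase of 43.5% in MIA PaCa-2 (0.52 ± 0.08, adjusted p = 0.00323, and 0.54 without control replicate 2). PATU8988T gave 38.6, 38.9 and 36.5 FPKM in the controls and 39.0, 39.8 and 39.2 FPKM after knockdown. These libraries lay almost side by side, and the 95% interval of the log2 fold change was from -0.04 to 0.14.

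**Figure D3:**
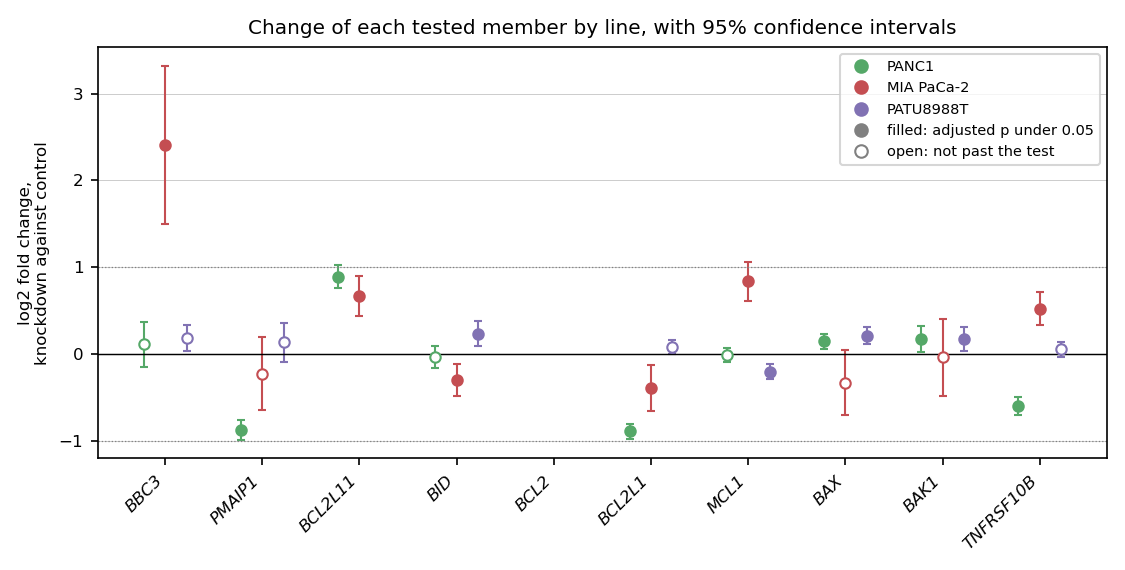
Log2 fold change of each tested member in PANC1, MIA PaCa-2 and PATU8988T, with 95% confidence intervals from limma, filled where the adjusted p was under 0.05 and open where it was not, and dotted lines at 2-fold. BBC3 in MIA PaCa-2 (2.41) lies above the 2-fold line, TNFRSF10B lies on opposite sides of 0 in PANC1 (-0.60) and MIA PaCa-2 (0.52), and BCL2 was not tested.

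Whether the lines differed in their response was tested as an interaction in 1 limma fit of all 18 libraries over 9083 genes, which held 8 of the 10 members. Gene lengths in PANC1 and in the other lines were 1917 and 4248 bases for PMAIP1, 894 and 1462 for BAX and 1331 and 2662 for BID. They were 2936 and 2948 for BCL2L1 and 2281 and 2301 for BAK1, and did not differ for BBC3, MCL1 and TNFRSF10B. A gene has 1 length in all libraries of a line, so length cancels in a fold change within a line, apart from the 0.1 FPKM added. Whether reads of PMAIP1, BAX, BID, BCL2L1 and BAK1 were counted over other bases in PANC1 is not known. The part of this in the differences was not tested. PANC1 and MIA PaCa-2 differed for 7 of the 8, beside 43.4% of genes. The log2 changes of TNFRSF10B differed by -1.12 ± 0.08 (adjusted p = 2.37e-08), those of BBC3 by -2.30 ± 0.37 (adjusted p = 0.000121) and those of MCL1 by -0.85 ± 0.09 (adjusted p = 2.20e-06), and BAK1 did not differ past the threshold. MIA PaCa-2 and PATU8988T differed for 6 of 8 members, beside 52.9% of genes, with BBC3 at 2.23 ± 0.37 (adjusted p = 0.000102) and MCL1 at 1.04 ± 0.09 (adjusted p = 1.36e-07). PANC1 and PATU8988T differed for 4 of 8, beside 35.8%, with PMAIP1 at -1.01 ± 0.18 (adjusted p = 0.000316) and BCL2L1 at -0.98 ± 0.10 (adjusted p = 1.77e-06). Averaged over the 3 lines, the change passed the test for 4 of 8 members, beside 60.3% of genes. These were BBC3 (0.90 ± 0.15), MCL1 (0.20 ± 0.04), PMAIP1 (-0.32 ± 0.07) and BCL2L1 (-0.40 ± 0.04), with adjusted p of 8.05e-05, 0.000164, 0.00104 and 4.05e-07. Without MIA PaCa-2 control replicate 2 the count was 6, with BAK1 (0.18, adjusted p = 0.000445) and BAX (0.07, adjusted p = 0.0143) added. The share of all genes in that fit was not counted. Within MIA PaCa-2 alone, 75.3% of genes passed without this library. The mean of BBC3 came from lines of unlike size (0.11, 2.41 and 0.18) and that of MCL1 from lines of unlike sign (-0.02, 0.84 and -0.20). For TNFRSF10B the mean was -0.01 with a 95% interval from -0.08 to 0.06, from lines that moved in opposite directions. The filter left BCL2L11 and BCL2 out of this fit. With no filter on low values their means were 0.66 (adjusted p = 9.48e-09 with limma) and 0.16 (adjusted p = 0.0359). BCL2 rested on few reads and on lines of unlike sign, and the share of all genes with no filter was not counted.

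For the 4 members with the largest changes, the genes most alike in pattern were found by Pearson's r of log2 values after the control mean of each line was subtracted. Over the 18 libraries these were TRIP10 (0.984), RNF44 (0.979) and DHCR7 (0.977) for BBC3. HYOU1 (0.988), MYO19 (0.982) and XRCC6 (0.980) came closest to BCL2L1, and ARHGAP29 (0.980), MND1 (0.979) and CIP2A (0.978) to PMAIP1. For BCL2L11, over the 12 libraries of PANC1 and MIA PaCa-2, they included the ribosomal protein gene RPL4 and the elongation factor gene EEF1B2 (0.997 each). The libraries share lines, groups and depth, and these values are given as a description.

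The wider BCL2 family was measured through 14 further genes. In PANC1, 3 of 9 tested rose and 5 fell, in MIA PaCa-2 2 of 7 rose and 1 fell, and in PATU8988T 0 of 8 rose and 5 fell. Over all tested genes, PANC1 had 40.1% rising and 32.2% falling, MIA PaCa-2 had 18.7% and 21.7%, and PATU8988T had 20.9% and 18.5%. The tested genes of the wider family had median log2 fold changes of -0.21, 0.02 and -0.26, beside 0.06, -0.03 and 0.03 over all genes. The BH3-only gene BMF rose in PANC1 from 6.61 to 7.39 FPKM in the controls to 16.1 to 17.0 FPKM after knockdown (log2 fold change of 1.21 ± 0.06), and was under the filter in the other lines. BIK, also BH3-only, fell in PATU8988T from 23.5 to 26.1 FPKM to 9.91 to 12.8 FPKM (-1.07 ± 0.09), a call lost when all 18 libraries shared 1 estimate of the spread (adjusted p = 0.103). BNIP3L, a mitophagy receptor, rose in MIA PaCa-2 (1.63 ± 0.19) and fell in PANC1 (-0.21 ± 0.04) and PATU8988T (-0.39 ± 0.06). The PANC1 call was lost with that shared spread (adjusted p = 0.185).

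In the death receptor list of 17 genes, 12 were tested in each line, and 2 rose and 4 fell in PANC1, MIA PaCa-2 had 2 rises and 4 falls, and PATU8988T had 1 and 3, with medians of -0.03, 0.07 and -0.02. The shares of all genes that rose and fell were 40.1% and 32.2% for PANC1, 18.7% and 21.7% for MIA PaCa-2, and 20.9% and 18.5% for PATU8988T. TNFRSF10A, the other TRAIL receptor with a death domain, fell in PANC1 beside TNFRSF10B (-0.55 ± 0.07, adjusted p = 5.00e-05 with limma), and its log2 fold changes were 0.02 and 0.03 in MIA PaCa-2 and PATU8988T, neither past the test. The TRAIL gene TNFSF10 did not pass the test in PANC1 (0.03) or MIA PaCa-2 (0.52, adjusted p = 0.179) and was at most 0.0181 FPKM in PATU8988T. The adaptor FADD fell in PANC1 (-0.22 ± 0.06) and MIA PaCa-2 (-0.65 ± 0.15) and was at 0.03 in PATU8988T. Its PANC1 call was lost with the GC trend removed (adjusted p = 0.0846) and with the shared spread (adjusted p = 0.119), and its MIA PaCa-2 call without any 1 knockdown library (adjusted p from 0.0562 to 0.0600). CASP8, the initiator caspase of this pathway, rose in PANC1 (0.24 ± 0.05) and was at 0.28 (adjusted p = 0.121) and 0.00 in MIA PaCa-2 and PATU8988T. The MIA PaCa-2 value passed without control replicate 2 (0.14, adjusted p = 0.00404), with library weights (0.14, adjusted p = 0.00380), with the shared spread (adjusted p = 0.0130) and with the GC trend removed (0.25, adjusted p = 0.00170). FAS was under the filter in PANC1 and MIA PaCa-2. Its MIA PaCa-2 libraries were at 0.484, 0.444 and 0.634 FPKM in the controls and at 1.19, 1.19 and 1.23 FPKM after knockdown, with no overlap, and with no filter the log2 fold change was 1.08 (adjusted p = 0.00944). In PATU8988T FAS was at -0.29 (adjusted p = 0.0660), which passed with library weights (adjusted p = 0.0109), limma-voom (adjusted p = 0.0164) and the GC trend removed (adjusted p = 0.0267). TNFRSF25, a death receptor of the same family, fell in PANC1 (-1.04 ± 0.17) and PATU8988T (-0.49 ± 0.11) and was at 0.05 in MIA PaCa-2, not past the test.

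Downstream, among 20 genes of the apoptosome, the caspases and the inhibitors of apoptosis, 10 rose and 5 fell in PANC1, MIA PaCa-2 had 4 rises and 3 falls, and PATU8988T had 7 and 2, with medians of 0.12, 0.07 and 0.02. The same shares of all genes were 40.1% and 32.2%, 18.7% and 21.7%, and 20.9% and 18.5%. Only BIRC3, which encodes cIAP2, passed the 2-fold threshold, in MIA PaCa-2 (5.80 and 6.25 FPKM in control replicates 3 and 1 and 3.34 FPKM in control replicate 2, against 19.8 to 20.3 FPKM after knockdown, means 3.92-fold apart). It rose in PANC1 (0.16 ± 0.05), a call lost when libraries were rescaled (adjusted p = 0.0622) and with the shared spread (adjusted p = 0.415), and fell in PATU8988T (-0.33 ± 0.11), a call lost without control replicate 1, control replicate 2 or knockdown replicate 2 (adjusted p from 0.0561 to 0.106) and with the shared spread (adjusted p = 0.175).

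CDKN1A, the p21 inhibitor of the cell cycle, went in MIA PaCa-2 from 1.18, 1.78 and 1.02 FPKM to 10.7, 11.2 and 10.1 FPKM. The groups were far apart, and it rose by 2.95 ± 0.20 there (adjusted p = 0.000202 with limma), by 0.65 ± 0.04 in PANC1 and by 0.20 ± 0.05 in PATU8988T, where the call was lost with the shared spread of 18 libraries (adjusted p = 0.302). ZMAT3, which encodes a zinc finger protein that binds RNA, passed the 2-fold threshold in MIA PaCa-2 (1.16 ± 0.20) and SESN1 in PANC1 (1.25 ± 0.07), while the repair gene XPC fell in MIA PaCa-2 (-1.12 ± 0.13) and PANC1 (-0.86 ± 0.07) and rose in PATU8988T (0.14 ± 0.04), where the call was lost without control replicate 1, control replicate 2 or knockdown replicate 3 (adjusted p from 0.0676 to 0.107) and with the shared spread (adjusted p = 0.268).

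ATF4 and CHOP (DDIT3), transcription factors of the integrated stress response, are known to act on BBC3, PMAIP1, BCL2L11 and TNFRSF10B. ATF4 rose in PANC1 (0.46 ± 0.02), MIA PaCa-2 (0.82 ± 0.08) and PATU8988T (0.34 ± 0.04), and so did DDIT3 (0.84 ± 0.05, 1.28 ± 0.17 and 0.84 ± 0.04). In PANC1 DDIT3 was at 34.9, 34.4 and 38.8 FPKM in the controls and at 63.2, 64.0 and 66.2 FPKM after knockdown. Every knockdown library was above every control for both genes in all 3 lines. Of the 12 genes on this list, 9 rose and 2 fell in PANC1, MIA PaCa-2 had 9 rises and 0 falls, and PATU8988T had 8 and 2 of 11 tested, beside 40.1% and 32.2%, 18.7% and 21.7%, and 20.9% and 18.5% of all genes. The median log2 fold changes were 0.52, 1.12 and 0.42, beside the 0.06, -0.03 and 0.03 of all genes. ATF3 (1.37, 2.38 and 1.19), CHAC1 (1.20, 1.44 and 2.76) and SESN2 (1.23, 2.15 and 1.24) passed the 2-fold threshold in PANC1, MIA PaCa-2 and PATU8988T. TRIB3 passed it in PANC1 (1.03) and MIA PaCa-2 (1.80), with -0.08 in PATU8988T, and ASNS in MIA PaCa-2 (1.96), from controls at 0.640 to 1.01 FPKM. ASNS also rose in PANC1 (0.44 ± 0.03). In PATU8988T it was under the filter, and with no filter it was at 1.75 (adjusted p = 0.00230 with limma). ERO1A, an oxidase of the endoplasmic reticulum, fell in PANC1 (-1.08 ± 0.04) and PATU8988T (-0.86 ± 0.05), and DDIT4 fell in PATU8988T (-1.03 ± 0.05) and PANC1 (-0.27 ± 0.02) and rose in MIA PaCa-2 (0.86 ± 0.22). The MIA PaCa-2 call was lost without any 1 library other than control replicate 2 (adjusted p from 0.0541 to 0.0717), and the PANC1 call with the shared spread (adjusted p = 0.130).

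**Figure D4:**
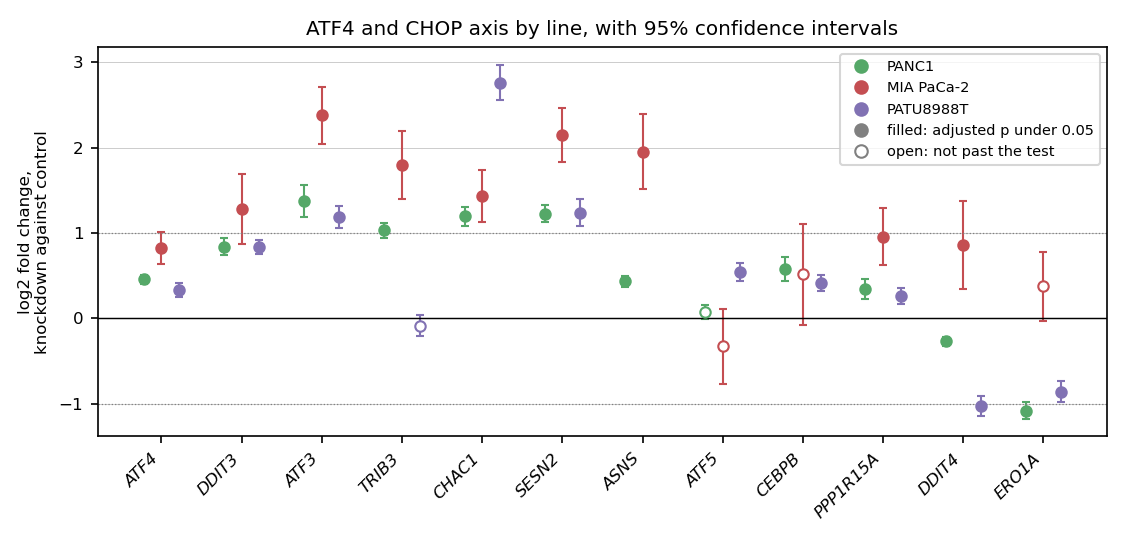
Log2 fold change of the 12 genes of the ATF4 and CHOP list in the 3 lines, with 95% confidence intervals from limma, filled where the adjusted p was under 0.05, and dotted lines at 2-fold. ATF4, DDIT3, ATF3, CHAC1 and SESN2 lie above 0 in all 3 lines, and ERO1A lies below 0 in PANC1 (-1.08) and PATU8988T (-0.86).

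Among 16 regulators of BIM, MCL1 and other members, 6 rose and 6 fell in PANC1, MIA PaCa-2 had 4 rises and 1 fall, and PATU8988T had 6 and 2, of 14, 15 and 15 tested, with medians of -0.10, 0.13 and 0.09. The immediate early genes EGR1 (1.54 ± 0.09) and JUN (1.02 ± 0.15) passed the 2-fold threshold in MIA PaCa-2. JUN rose in PATU8988T (0.45 ± 0.03) and fell in PANC1 (-0.17 ± 0.04), a call lost with the shared spread (adjusted p = 0.143), and EGR1 did not pass the test in PANC1 (-0.14) or PATU8988T (-0.09). Over all pathway lists, 86 of 99 genes were tested in each line, and 39 rose and 29 fell in PANC1, MIA PaCa-2 had 27 rises and 11 falls, and PATU8988T had 33 and 15. Beside these counts and those of the 16 regulators stand the 40.1% and 32.2% of all genes for PANC1, 18.7% and 21.7% for MIA PaCa-2, and 20.9% and 18.5% for PATU8988T.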

How the data were processed

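The authors deposited 1 table of FPKM values for 26668 gene symbols in 18 libraries, made per their methods with HISAT2 and HTSeq-count, and tested with DESeq2 at the thresholds used here. The methods name TRIzol extraction and a VAHTS kit, the labels RNeasy and a SMARTer kit. The submitters' processing notes list hg38, mm10 and GRCm38 with no role, and versions and strand use are not given in the sources used here. Whole reads were recovered from the steps of the FPKM values for every gene above 0 in each line (tolerance of 0.001 reads). Gene lengths came out with them, and for some members those of PANC1 differed from those of MIA PaCa-2 and PATU8988T. Levels were not compared between lines. Libraries held 32486479 to 39797537 reads.

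FPKM was tested as log2(FPKM + 0.1), which understates changes of low genes, with limma 3.58.1 (R 4.3.3, trend) in genes with a mean of at least 1 FPKM over the 6 libraries of a line, with Benjamini-Hochberg adjustment over those genes. Interactions and the mean effect came from 1 fit of all 18 libraries over genes passing in every line. The scripts were tested on simulated data. Groups followed the titles. Samples were not paired by replicate number in the main fits. Named genes were the members, OFD1, pathway genes past 2-fold in any line, pathway genes chosen by name (ATF4, DDIT3, CASP8, FADD, TNFRSF10A, TNFSF10 and FAS) and the 3 genes most alike to each of 4 members. ABALON and MIR4435-2HG were added for their overlap with members. Some genes that these rules name are not reported here. The members and lists were chosen with earlier results of these data known. Alternatives were other pseudocounts (0.01 and 1), filters, rescaling, library weights, limma-voom on recovered reads, a replicate block, leaving out each library and, added after seeing the data, removal of each library's GC trend.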

Additional observations from a re-analysis of the deposited data

Results flagged for a closer look

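The knockdown effect on 8 members could be compared between lines, and 17 of the 24 differences passed the interaction test in limma (adjusted p under 0.05), beside 43.4% of genes for PANC1 against MIA PaCa-2, 35.8% for PANC1 against PATU8988T and 52.9% for MIA PaCa-2 against PATU8988T. Between PANC1 and MIA PaCa-2 the log2 changes, PANC1 minus MIA PaCa-2, differed by -2.30 for BBC3, -0.65 for PMAIP1 (adjusted p = 0.00747), -0.50 for BCL2L1 (adjusted p = 0.000802), -0.85 for MCL1, 0.48 for BAX (adjusted p = 0.0165), 0.27 for BID (adjusted p = 0.0265) and -1.12 for TNFRSF10B. Between PANC1 and PATU8988T they differed by -1.01 for PMAIP1, -0.98 for BCL2L1, -0.27 for BID (adjusted p = 0.0294) and -0.65 for TNFRSF10B (adjusted p = 6.28e-06). Between MIA PaCa-2 and PATU8988T they differed by 2.23 for BBC3, -0.47 for BCL2L1 (adjusted p = 0.000923), 1.04 for MCL1, -0.54 for BAX (adjusted p = 0.00593), -0.54 for BID (adjusted p = 0.000133) and 0.47 for TNFRSF10B (adjusted p = 8.76e-05). PMAIP1 also differed between MIA PaCa-2 and PATU8988T without MIA PaCa-2 control replicate 2 (-0.55, adjusted p = 0.000223), and MCL1 between PANC1 and PATU8988T (0.19, adjusted p = 0.00212). None of the 17 was lost without that library. The gene lengths of PMAIP1, BAX, BID and BCL2L1 in PANC1 were not those of the other lines, as given above. The differences of BID that involve PANC1 were lost in 13 alternative fits (adjusted p of at most 0.0819), namely rescaling (against MIA PaCa-2), the replicate block (against both lines) and, singly, the fits without PANC1 control replicate 1, 2 or 3, PANC1 knockdown replicate 1, 2 or 3, MIA PaCa-2 knockdown replicate 3, PATU8988T control replicate 1 and PATU8988T knockdown replicate 1 or 2.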

How the results depend on the processing

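Each member was refitted under alternative settings. Of 143 such fits in PANC1, 133 kept the direction and the side of the threshold and 10 lost the call, all for BAX or BAK1. In MIA PaCa-2, 123 of 141 did so, 9 lost and 7 gained a call, and 2 reversed, both for BAK1, at 0.18 with library weights and 0.18 without control replicate 2 (-0.16 to 0.18 over the fits without 1 library). In PATU8988T 111 of 127 did so, 9 lost and 7 gained a call. Of 528 fits between lines, 513 were the same.

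Without MIA PaCa-2 control replicate 2, all 9 tested members of that line passed the test (5 rose and 4 fell), beside 75.3% of its genes, and BBC3 stayed the 1 member past 2-fold. BBC3 could not be tested there at a mean of at least 5 FPKM, which left 0 members and 9 pathway genes past 2-fold. In PATU8988T the shared spread of 18 libraries left 2 members past the test, beside 1011 genes higher and 1088 lower. Leaving out 1 PATU8988T library gave 2 to 5 members past the test, beside 1461 to 2494 genes higher and 1528 to 2030 lower. It gave 3 to 5 pathway genes past 2-fold, and the lowest member count was without control replicate 1.

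Counts of genes past 2-fold moved with the filter and the pseudocount. With a pseudocount of 1 FPKM they were 96 higher and 346 lower for PANC1, 219 higher for MIA PaCa-2, 11 and 23 for PATU8988T. With no filter 360 were higher in PANC1, 772 in MIA PaCa-2, and 45 higher and 192 lower in PATU8988T. At a mean of at least 5 FPKM they were 80 and 336 for PANC1, 177 higher for MIA PaCa-2, 7 and 23 for PATU8988T. The reported counts were 191 and 528, 438 and 396, and 17 and 90.

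Counts at adjusted p under 0.05 moved in MIA PaCa-2 and PATU8988T. In MIA PaCa-2, 2012 genes were higher and 2338 lower, against 1204 higher at 5 FPKM, 3898 and 4424 with library weights, 3047 higher with the shared spread and 3332 higher with the GC trend removed, and leaving out 1 library gave 1101 to 3811 higher and 1319 to 4287 lower, with the highest counts (3811 and 4287) without control replicate 2. In PATU8988T, 2235 were higher and 1981 lower, against 1240 lower at 5 FPKM, 3633 higher with library weights, 1011 and 1088 with the shared spread, and leaving out 1 library gave 1461 to 2494 higher, with the lowest count without control replicate 2.

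The main fits did not pair samples by replicate number. Same-numbered deviations correlated between -0.111 and 0.130, and unlike-numbered ones between -0.231 and 0.226. These values cannot show whether samples were paired, since the deviations within a group depend on each other. The fit with the replicate number as a block left 6, 5 and 5 members past the test in PANC1, MIA PaCa-2 and PATU8988T. Over all genes it gave 4369 higher and 3515 lower of 10902, 1551 and 1818 of 10758, and 2019 and 1832 of 10698. Among the members it lost BID in MIA PaCa-2 (adjusted p = 0.0803) and gained BBC3 in PATU8988T (adjusted p = 0.0397). The causes of these shifts were not tested. Depth limits BCL2, which had 8 to 167 reads per library.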
